A study of Rattus norvegicus with 3 samples.

Results

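Cell division genes were followed in single-nucleus RNA sequencing of the rat heart apex. The list held 40 genes chosen for their known roles, 28 of mitosis and 12 of DNA replication and S phase. Of these, 39 of the 22250 genes counted were found by symbol, 27 of mitosis and 12 of replication, and Ccnb2 was not found. A nucleus with 3 or more unique molecular identifiers (UMIs, each one captured transcript) of the list was called dividing, and 1281 of 24664 nuclei met this rule.

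The study compared WT Sprague Dawley rats with 2 lines that carry deletions in the dystrophin gene Dmd, and each was sampled at 12 months of age. BMD rats lack exons 45 to 47, an in-frame deletion modelling Becker muscular dystrophy, and DMD rats lack exon 52, modelling Duchenne muscular dystrophy. Nuclei of the apex, with parts of both ventricles and the septum, were sorted and captured with the 10x Genomics 3′ kit v3.1. There was 1 library per genotype, so animals and genotypes cannot be told apart and no test between genotypes was run.

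Cells that re-enter the cell cycle copy their DNA in S phase and then separate the copies in mitosis, and each step needs proteins made in a burst. Many replication members build and run the machinery that opens and copies DNA. Others act on chromatin, as Ezh2 and Atad2 do, or in DNA repair, as Brca1 and Brip1 do. The mitosis members condense chromosomes, attach them to the spindle and split the cell. In the adult heart, cardiomyocytes rarely divide, whereas fibroblasts, endothelial cells and immune cells can.

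Promoters of dividing-cell genes carry recurring short sequences, and 5 members from both roles are shown so that these can be compared. Mki67, Top2a and Cdk1 stand for the mitosis members, and Mcm6 and Pola1 for the replication members. They were chosen with their counts known. The sequences come from RefSeq (GRCr8) and give the 250 bases before the gene start in the direction of the gene. Capitals mark the CHR element (TTTGAA), an E2F-like site (TTCCCGC, its variant TTGGCGC, the further variant TTCGCGC or the last variant TTGCCGC) or a CCAAT box (CCAAT), each searched on both strands. Matches may overlap. Mki67 lies at chr1:199952594-199952843 (minus strand), Top2a at chr10:84473094-84473343 (minus strand), Cdk1 at chr20:19265043-19265292 (plus strand), Mcm6 at chr13:42404353-42404602 (minus strand) and Pola1 at chrX:62342356-62342605 (minus strand).
Mki67: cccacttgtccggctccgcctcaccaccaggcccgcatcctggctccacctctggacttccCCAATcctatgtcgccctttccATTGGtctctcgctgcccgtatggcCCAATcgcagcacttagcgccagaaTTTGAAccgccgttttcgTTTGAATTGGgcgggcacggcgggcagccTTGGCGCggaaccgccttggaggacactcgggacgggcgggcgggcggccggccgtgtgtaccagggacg
Top2a: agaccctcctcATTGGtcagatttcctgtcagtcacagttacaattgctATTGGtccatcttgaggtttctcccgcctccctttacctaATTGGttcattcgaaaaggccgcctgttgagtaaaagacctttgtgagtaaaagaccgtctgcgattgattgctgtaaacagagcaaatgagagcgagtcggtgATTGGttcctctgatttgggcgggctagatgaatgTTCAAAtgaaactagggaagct
Cdk1: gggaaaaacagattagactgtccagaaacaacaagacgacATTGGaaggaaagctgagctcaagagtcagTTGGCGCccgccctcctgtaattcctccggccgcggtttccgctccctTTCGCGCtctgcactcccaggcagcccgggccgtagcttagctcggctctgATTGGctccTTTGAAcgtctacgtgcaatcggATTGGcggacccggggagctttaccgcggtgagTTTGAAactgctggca
Mcm6: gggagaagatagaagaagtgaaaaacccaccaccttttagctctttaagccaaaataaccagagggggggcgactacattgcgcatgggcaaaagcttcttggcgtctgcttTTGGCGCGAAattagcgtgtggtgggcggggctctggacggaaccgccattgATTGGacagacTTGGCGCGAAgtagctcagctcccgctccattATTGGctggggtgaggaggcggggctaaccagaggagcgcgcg
Pola1: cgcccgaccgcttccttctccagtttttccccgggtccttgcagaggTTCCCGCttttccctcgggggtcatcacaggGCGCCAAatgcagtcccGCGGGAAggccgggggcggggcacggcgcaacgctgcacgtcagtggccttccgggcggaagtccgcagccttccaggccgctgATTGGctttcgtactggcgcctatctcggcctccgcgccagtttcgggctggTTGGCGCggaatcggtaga

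Of the 39 members, 33 had a promoter in the table. The CHR element was present in 12 of 24 mitosis members and in 1 of 9 replication members, against 16.2% of 33469 promoters. An E2F-like site was present in 5 of 24 mitosis members and 5 of 9 replication members, against 7.59% of all promoters. A CCAAT box was found in 16 of 24 and 6 of 9, against 34.0% of all. The CHR element and the CCAAT box occurred together in 9 mitosis promoters and in 0 replication promoters, against 5.87% of all. A match only says that these letters are present.

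The libraries held 19215994 to 21609238 UMIs, and 24664 barcodes, the top of each library by UMI total, were treated as nuclei. Where 3 values are given together, they stand in the order WT, BMD, DMD. The median depth of a nucleus was 1212.5, 1486.5 and 1229 UMIs. Libraries shared 12 to 20 barcodes among their nuclei. Scrublet called 5.11% to 10.6% of nuclei doublets, and these were kept. The level of Dmd over all nuclei was 7641, 10584 and 6977 UMIs per 1000000 (CPM). The deletions take out a small part of the gene, so its level does not check the labels. All intervals are 95% intervals that cover counting error only.

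Dividing nuclei by the rule numbered 465 in WT, 430 in BMD and 386 in DMD. The WT share was 4.67% (exact Clopper-Pearson interval 4.26 to 5.10). The BMD share was 6.31% (5.75 to 6.92), and DMD had 4.89% (4.43 to 5.39). The BMD share stood 1.65 percentage points above WT (Newcombe interval 0.95 to 2.37) and the DMD share 0.23 points above it (-0.40 to 0.86). WT counts came from a deposited aggregate of the libraries throughout, while BMD and DMD counts came from matrices of their own. With BMD also taken from the aggregate, which holds 76.1% of its UMIs, the BMD minus WT difference was -0.643 points (-1.26 to -0.01). Depth moved with these shares. Dividing nuclei had a median of 2473 UMIs and the others 1247. When every nucleus was thinned to 500 UMIs, the shares that kept 3 list UMIs were 0.713%, 0.910% and 0.659%. The BMD difference was then 0.198 points (-0.074 to 0.49). Scrublet doublets made up 19.1% of dividing nuclei and 7.38% of the others, and without them the shares were 4.07%, 5.76% and 4.11%. Barcodes with at most 50 UMIs, which hold free RNA, had 397, 289 and 328 CPM of the list, against 379, 387 and 394 CPM in nuclei. The part of free RNA in the shares was not tested.

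Most dividing nuclei held few list UMIs. There were 922 nuclei with 3 to 4, 213 with 5 to 9 and 146 with 10 or more. Pola1, Ezh2, Atad2 and Smc2 gave 65.5% of the list UMIs of nuclei with 3 to 4, but 21.8% of those of nuclei with 10 or more. In 331 dividing nuclei, 25.8% of all, these 4 genes were the whole count, and in 91 Pola1 alone was. A UMI of a mitosis member was present in 811 dividing nuclei, 63.3%.

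Other cell cycle genes, which did not choose the nuclei, were used to check the name. Their lists were drawn up with earlier results of these data known. The 54 other mitosis genes summed to 225 CPM (exact Poisson interval 219 to 231) in nuclei without a list UMI and to 244 CPM (237 to 252) just outside the rule, at 1 to 2 list UMIs. Just inside it, at 3 to 4 list UMIs, they summed to 279 CPM (261 to 298). They reached 521 CPM (475 to 570) at 5 to 9 and 5937 CPM (5708 to 6174) at 10 or more. The step to the last class was present in all 3 libraries, at 5983 CPM in WT, 6583 in BMD and 5115 in DMD. The 50 other replication genes followed the same order, with 470 CPM at 0, 491 at 1 to 2, 588 at 3 to 4, 1175 at 5 to 9 and 3915 at 10 or more. The 20 genes of cell cycle entry and brakes moved less, from 1167 CPM at 0 to 1662 at 10 or more. In other mitosis genes, nuclei with 3 to 4 list UMIs, the bulk of those called dividing, therefore lay close to nuclei without list UMIs. Nuclei with 10 or more, a limit set after seeing the data, are described separately for classes, members and further genes.

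**Figure D1:**
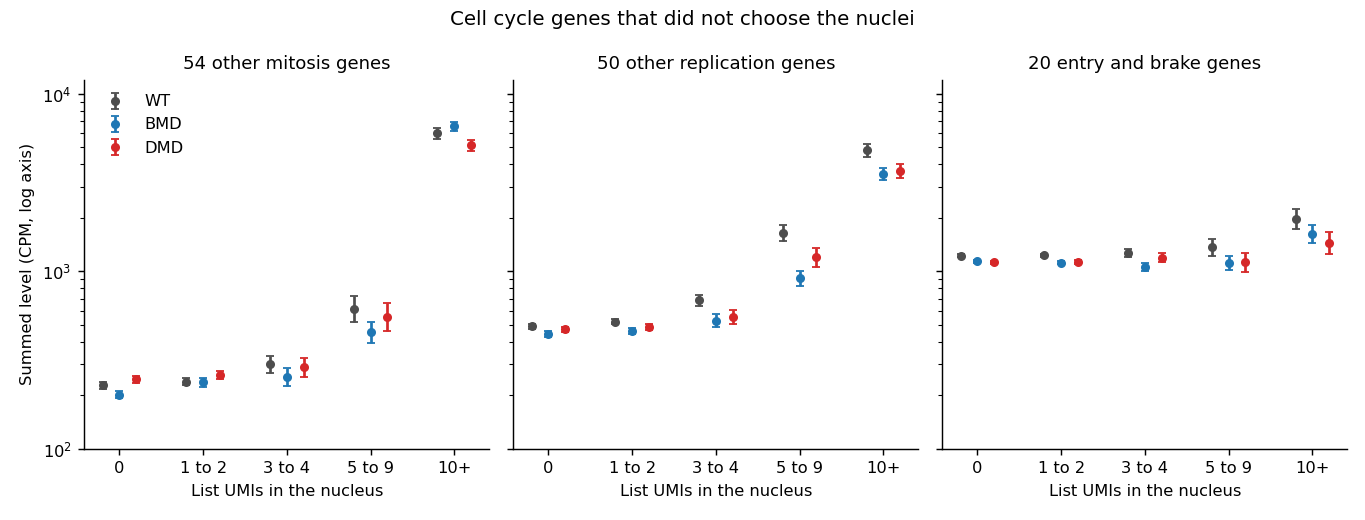
Summed level (CPM, log axis) of cell cycle genes outside the list against the number of list UMIs in the nucleus, for the WT, BMD and DMD libraries, with exact Poisson 95% bars. In all 3 libraries the other mitosis genes lie between 202 and 299.8 CPM up to 4 list UMIs and between 5115 and 6583 CPM at 10 or more.

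Nuclei were clustered without the cell cycle genes, and clusters were named from cell type markers. Fibroblast-like nuclei made up the largest group of dividing nuclei, 470 of 1281, followed by 203 cardiomyocyte-like and 121 macrophage-like nuclei. The dividing share of fibroblast-like nuclei was 5.19% in WT (184 of 3542), 8.81% in BMD (145 of 1646) and 6.10% in DMD (141 of 2312). Macrophage-like nuclei had shares of 7.5%, 9.04% and 4.76%. The T or NK cell-like shares were 8.26%, 4.95% and 5.06%. Endothelial-like nuclei had 1.23%, 2.65% and 1.99%, pericyte or smooth muscle-like nuclei 1.82%, 4.32% and 3.24%, and lymphatic-like nuclei 2.78%, 4.23% and 2.49%. Dividing nuclei numbered 6 of 106 in the Schwann-like class, 3 of 85 in the B cell-like class and 0 of 22 in the mesothelial-like class, which allows a share of up to 13.6%.

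The order of the classes changed at equal depth. After thinning to 500 UMIs, T or NK cell-like nuclei had the highest share of the named classes when the 3 libraries were pooled, 3.91% (32 of 818). The next were monocyte or neutrophil-like nuclei at 2.60% (10 of 384), Schwann-like nuclei at 1.89% (2 of 106) and macrophage-like nuclei at 1.87% (31 of 1658). The T or NK cell-like interval (2.69 to 5.48) lay above the macrophage-like one (1.27 to 2.64) and overlapped the others of these. Fibroblast-like nuclei had 0.773%, pericyte or smooth muscle-like nuclei 0.588% and endothelial-like nuclei 0.584%, with overlapping intervals. The T or NK cell-like share at equal depth was 5.01% in WT, 3.60% in BMD and 2.72% in DMD, with intervals that overlap. Library by library it was not the highest. The monocyte or neutrophil-like class, of which Scrublet called 50% doublets, had 5.56% in WT (7 of 126) and 3.75% in BMD (3 of 80). The Schwann-like class had 4.76% in DMD (1 of 21). The fibroblast-like share was 0.536% in WT, 0.972% in BMD and 0.995% in DMD. The DMD value was 0.46 points above WT (0.012 to 0.99) and the BMD value 0.44 points above it (-0.043 to 1.07).

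**Figure D2:**
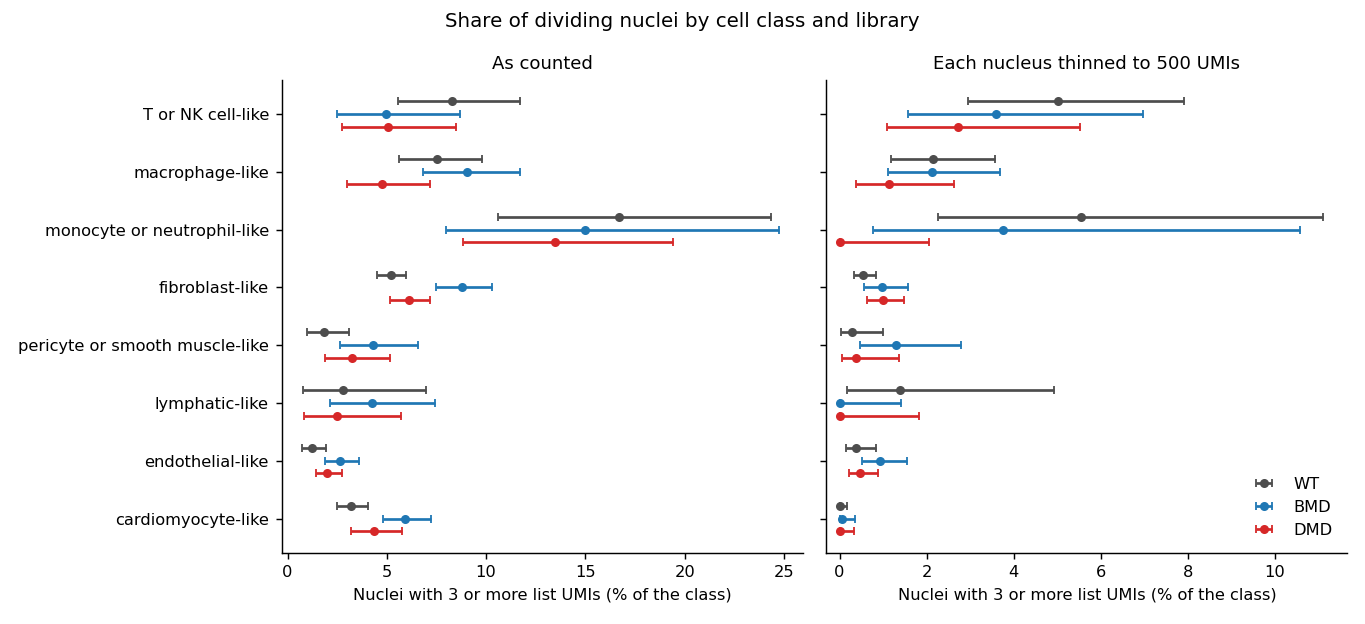
Share of nuclei with 3 or more list UMIs in 8 cell classes of the WT, BMD and DMD libraries, as counted (left) and with each nucleus thinned to 500 UMIs (right, on its own scale), with exact Clopper-Pearson 95% bars. Cardiomyocyte-like nuclei lie between 3.19% and 5.92% as counted and at or below 0.0651% after thinning.

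Of the named classes, the monocyte or neutrophil-like class had the highest share as counted, 16.7%, 15% and 13.5%, but Scrublet called 50% of its 384 nuclei doublets. The class also had 9 raised macrophage markers and 9 raised T or NK cell markers. Its own markers stood at 575 CPM in its dividing nuclei and at 10610 CPM in the others. When doublets were removed and nuclei were clustered again, the class of this name held 82 nuclei. Of these, 0 were dividing, which allows up to 3.66%. They are fewer than the nuclei of the 384 not called doublets, so the 2 sets differ. Of the 10 nuclei of the first class with 10 or more list UMIs, Scrublet called 7 doublets. A cluster led by Adarb2 and Kcnj5 and another led by Nrg1 and Vwf were among those left unnamed. They had 13.6% and 13.1% dividing nuclei, and Scrublet called 86.8% and 85.4% of their nuclei doublets. A cluster led by Nrg1 and Cgnl1, with 548 nuclei and 5.11% doublets, was also unnamed, as was 1 led by mitochondrial genes.

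Cardiomyocyte-like nuclei were the deepest named class, with library medians of 2760, 3754 and 3240 UMIs. As counted, 3.19%, 5.92% and 4.35% of them were dividing by the rule. After thinning, 0 of 2039 remained in WT, 1 of 1537 in BMD and 0 of 1080 in DMD, and a count of 0 allows up to 0.147% and 0.278%. The 202 cardiomyocyte-like nuclei with 3 to 9 list UMIs had 162 CPM of the other mitosis genes (141 to 185), against 141 CPM (135 to 147) in those under 3. For the other replication genes, the values were 372 CPM (340 to 406) and 363 CPM (354 to 373). Their median depth was 5462 UMIs against 3079. In macrophage-like nuclei, by contrast, those with 3 to 9 list UMIs had 962 CPM of the other mitosis genes against 400 CPM under 3. In T or NK cell-like nuclei the values were 1947 and 656 CPM, and in fibroblast-like nuclei 408 and 296 CPM.

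Nuclei with 10 or more list UMIs numbered 50 in WT, 53 in BMD and 43 in DMD, or 0.502%, 0.778% and 0.545%. The BMD share was 0.28 points above WT (0.034 to 0.54) and the DMD share 0.043 points above it (-0.17 to 0.27), at unequal depth. They were spread over 44 fibroblast-like, 27 macrophage-like, 23 T or NK cell-like and 17 endothelial-like nuclei and smaller classes. T or NK cell-like nuclei made up 3.32% of all nuclei and 15.8% of these, and macrophage-like nuclei 6.72% and 18.5%. Fibroblast-like nuclei made up 30.4% and 30.1%, and cardiomyocyte-like nuclei 18.9% and 0.685%. The 1 cardiomyocyte-like nucleus came from BMD, held 15476 UMIs and was called a doublet by Scrublet. The highest nucleus was a T or NK cell-like nucleus of BMD, with 80 list UMIs of 25 members among 3722 UMIs.

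By class, the BMD share of nuclei with 10 or more list UMIs was above WT beyond counting error in endothelial-like and fibroblast-like nuclei. In endothelial-like nuclei there were 2, 11 and 4, and the BMD share was 0.60 points above WT (0.13 to 1.18). In fibroblast-like nuclei there were 12, 16 and 16, and the shares of 0.972% in BMD and 0.692% in DMD stood 0.63 points (0.18 to 1.25) and 0.35 points (-0.013 to 0.81) above WT. In T or NK cell-like nuclei there were 13, 5 and 5, and in macrophage-like nuclei 12, 11 and 4, with intervals of the difference that include 0. The limit of 10 was not applied to thinned nuclei. Over all nuclei the median depth was 1212.5 UMIs in WT and 1486.5 in BMD. The part of depth in these shares was not tested. By the rule of 3 list UMIs as counted, BMD was also above WT beyond counting error in cardiomyocyte-like nuclei (2.73 points, 1.36 to 4.19). The same held in pericyte or smooth muscle-like nuclei (2.50 points, 0.53 to 4.88). By that rule after thinning to 500 UMIs, the BMD differences were 0.54 points (-0.054 to 1.19) in endothelial-like and 0.44 points (-0.043 to 1.07) in fibroblast-like nuclei. Both intervals include 0. In pericyte or smooth muscle-like nuclei the BMD difference was then 1.02 points (0.0012 to 2.53). Thinning was drawn once, and the intervals leave out the spread between draws. Unthinned, the difference in this class was 0.58 points (-0.32 to 1.94) with 10 or more list UMIs. It was 0.30 points (-0.71 to 1.68) from mitosis members and 0.66 points (-0.36 to 2.11) without the 4 members with most UMIs. In the other named classes the thinned intervals of BMD minus WT included 0. Class markers were compared as well. Fibroblast markers summed to 12089 CPM in fibroblast-like nuclei with 10 or more list UMIs and to 11132 CPM in those under 3, and T or NK cell markers to 6248 and 7430 CPM. Endothelial markers stood at 5448 against 9443 CPM, pericyte or smooth muscle markers at 7432 against 12132 CPM and macrophage markers at 3658 against 5361 CPM, so of these 5 classes only fibroblast markers were not lower. A macrophage marker UMI was present in 77.8% of the 27 macrophage-like nuclei with 10 or more list UMIs and in 76.5% of those under 3.

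**Figure D3:**
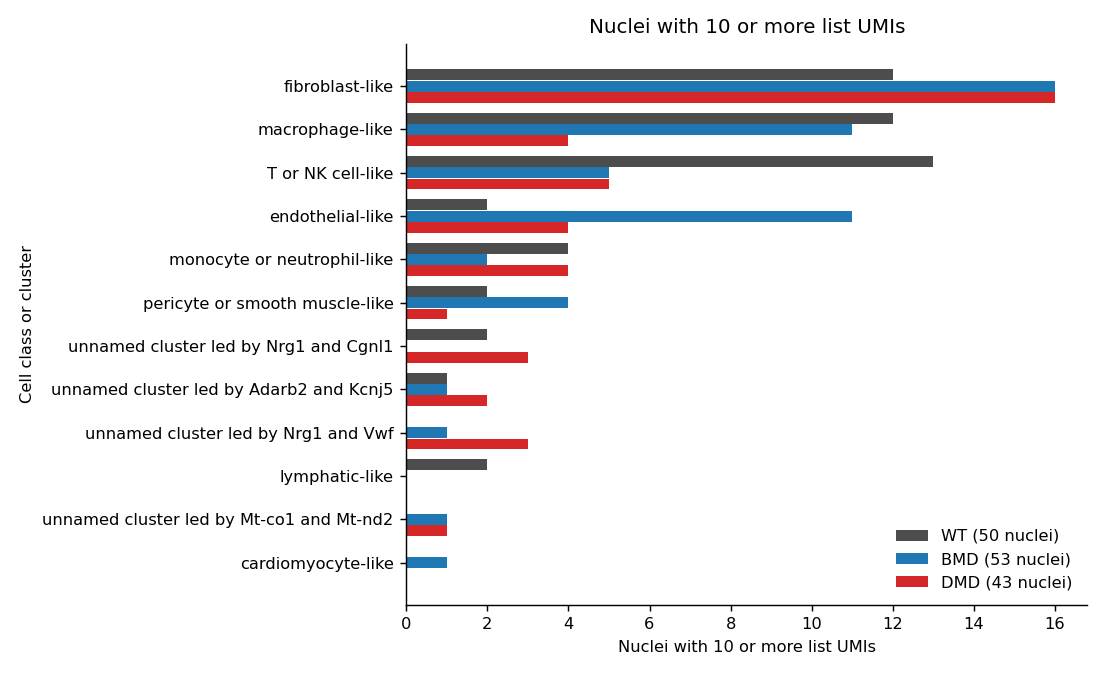
Number of nuclei with 10 or more list UMIs (horizontal axis) in each cell class or unnamed cluster, for WT (50 nuclei), BMD (53) and DMD (43). Fibroblast-like nuclei are 12 to 16 per library, endothelial-like nuclei 11 in BMD against 2 in WT, and the cardiomyocyte-like class holds 1.

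Of the 146 nuclei, 82 had more mitosis than replication UMIs, 59 had more replication UMIs and 5 had as many of both. Genes outside the list followed this division. The other mitosis genes summed to 9777 CPM in the mitosis-led nuclei and to 2179 CPM in the replication-led ones. The other replication genes summed to 3138 CPM in the former and 4482 CPM in the latter. Both directions were present in each library, but for the other replication genes the intervals overlapped in WT and DMD and were apart only in BMD. Mitosis-led nuclei made up 14 of 17 endothelial-like and 17 of 23 T or NK cell-like nuclei, but 20 of 44 fibroblast-like and 12 of 27 macrophage-like nuclei.

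Of the 39 members, Top2a and Cenpf had the highest shares of their UMIs in dividing nuclei. Counts of different genes are not compared as levels, since UMIs were not scaled to gene length. UMI counts of a gene also depend on the UMI totals of the nuclei, which were 17160871, 14971887 and 13766688. Top2a, the topoisomerase that untangles sister chromosomes, had 71 UMIs in the WT library against 133 for BMD and 77 for DMD, and 258 of the 281 lay in dividing nuclei. Cenpf, a kinetochore protein, had 65, 138 and 70 UMIs, and 240 of 273 lay in dividing nuclei. This is a description, as the same UMIs chose the nuclei. For both genes BMD was highest, also in CPM, at 8.88 for Top2a and 9.22 for Cenpf. WT had 4.14 and 3.79 CPM, and DMD 5.59 and 5.08 CPM. The log2 ratios of DMD over WT were 0.43 (-0.05 to 0.92) and 0.42 (-0.08 to 0.93), with intervals that include 0. Mki67, which coats mitotic chromosomes and is the usual marker of proliferation, had 93, 122 and 117 UMIs.

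Diaph3, a formin that builds actin filaments, had 185, 262 and 224 UMIs, and 337 of its 671 UMIs came from fibroblast-like nuclei. Smc2, the core of the condensin complexes, had 404, 295 and 327 UMIs, or 23.5, 19.7 and 23.8 CPM. Of its 1026 UMIs, 687 lay outside dividing nuclei. The spindle motor Kif15 had 251, 136 and 199 UMIs, or 14.6, 9.08 and 14.5 CPM, with BMD low. Of its 586 UMIs, 355 lay outside dividing nuclei. Nusap1, which binds spindle microtubules, and Anln, a scaffold of the contractile ring, were picked out after their values were seen. Cardiomyocyte-like nuclei held 179 of the 347 Nusap1 UMIs (51.6%) and 81 of the 198 Anln UMIs (40.9%), and 37.0% of the UMIs of all genes. They held 2.83% of the Diaph3 and 5.63% of the Kif15 UMIs.

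The replication members with the most UMIs lay largely outside dividing nuclei. Pola1, the catalytic subunit of the polymerase that starts new DNA strands, had 2079, 1598 and 1579 UMIs, the most of any member. This was 121, 107 and 115 CPM, and 3458 of 5256 UMIs lay outside dividing nuclei. Ezh2, a histone methyltransferase of the Polycomb system, had 783, 634 and 596 UMIs, and Atad2, a chromatin ATPase with a bromodomain, had 558, 557 and 615. Outside dividing nuclei lay 1363 of 2013 Ezh2 UMIs and 1110 of 1730 Atad2 UMIs. Atad2 was at 32.5 CPM in WT, 37.2 in BMD and 44.7 in DMD.

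Brip1, a helicase that works with Brca1 in DNA repair, had 224, 209 and 173 UMIs, or 13.1, 14.0 and 12.6 CPM. Of its 606 UMIs, 310 lay in dividing nuclei. Brca1 had 157, 135 and 126 UMIs, or 9.15, 9.02 and 9.15 CPM. Mcm4, a subunit of the replicative helicase, had 190, 150 and 141 UMIs, and 168 of 481 lay in dividing nuclei. The other Mcm subunits had between 139 and 400 UMIs each.

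**Figure D4:**
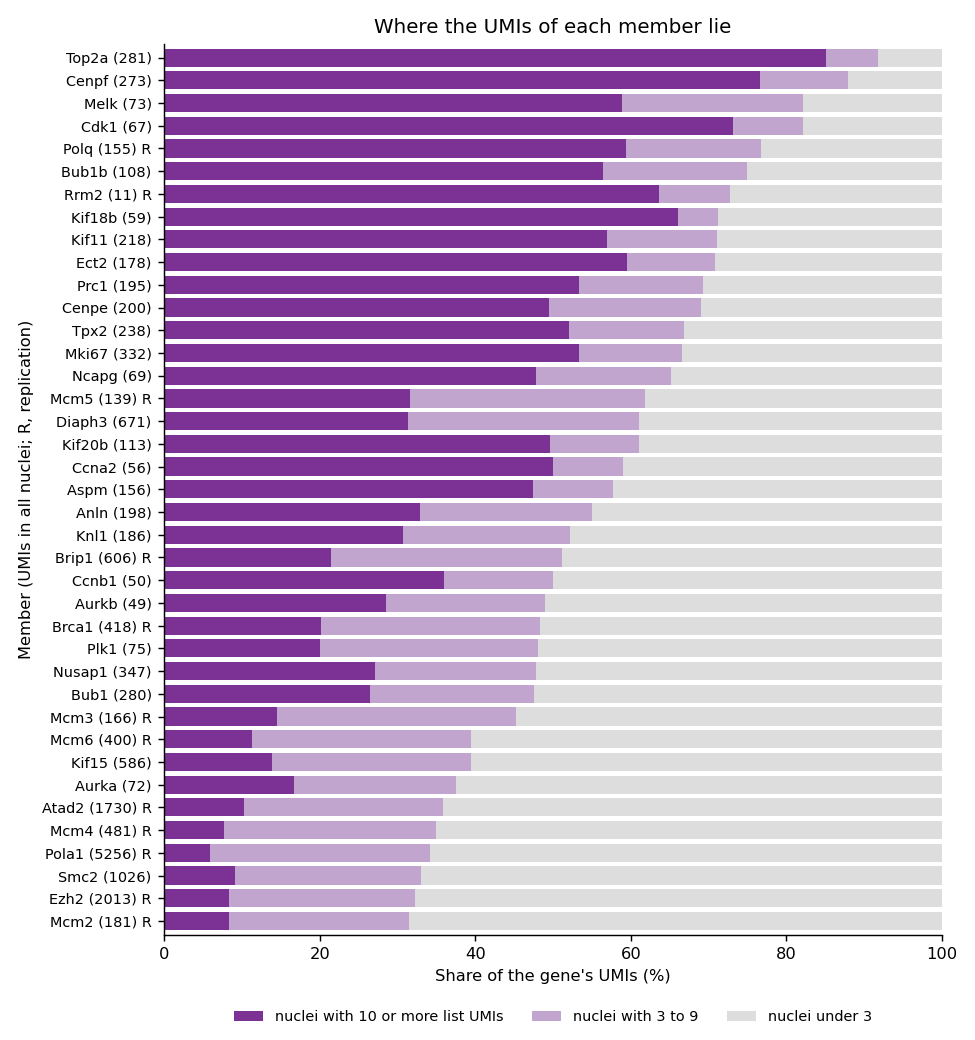
Share of each member's UMIs (%) that lies in nuclei with 10 or more, 3 to 9 and under 3 list UMIs, over the 3 libraries, with its UMI total in brackets and R for replication members. Top2a has 91.8% of its UMIs in dividing nuclei and Pola1 34.2%.

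The list as a whole stood at 379 CPM (370 to 388), 387 CPM (377 to 397) and 394 CPM (383 to 404). Mitosis members summed to 122, 146 and 136 CPM. Over WT, BMD had a log2 ratio of 0.26 (0.17 to 0.34) for these members, while DMD had 0.16 (0.07 to 0.25). Replication members summed to 257, 241 and 257 CPM, a log2 ratio of -0.09 for BMD (-0.15 to -0.03) and of 0.00 for DMD (-0.06 to 0.07). With TMM scaling between libraries, the BMD ratio was 0.34 (0.25 to 0.43) for the mitosis members and -0.01 (-0.07 to 0.06) for the replication members, so the lower BMD value of the latter was not kept. BMD also had the deepest median nucleus, and the part of depth in these levels was not tested. Few nuclei gave many of the mitosis UMIs. The 50, 53 and 43 nuclei with 10 or more list UMIs held 991, 1506 and 934 list UMIs. Replication members made up only 37.5%, 28.6% and 35.3% of these. Counting error therefore understates the spread of the mitosis levels. In nuclei under 3 list UMIs the whole list stood at 251, 214 and 254 CPM, with BMD lowest.

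Within classes, the mitosis members stood at 138 CPM in WT, 223 in BMD and 172 in DMD for fibroblast-like nuclei. On the log2 scale, BMD stood 0.69 above WT (0.53 to 0.85), while DMD stood 0.31 above it (0.15 to 0.47). Endothelial-like nuclei had 131, 236 and 137 CPM, a log2 ratio of 0.85 for BMD (0.60 to 1.12) and of 0.07 for DMD (-0.21 to 0.35). In macrophage-like nuclei the values were 301, 410 and 323 CPM, and in cardiomyocyte-like nuclei they were 49.7, 48.3 and 51.6 CPM. T or NK cell-like nuclei had 725, 658 and 585 CPM, and lymphatic-like nuclei 222, 104 and 77.3 CPM. BMD was thus above WT in fibroblast-like, endothelial-like and macrophage-like nuclei and below it in lymphatic-like nuclei by more than counting error. DMD was above WT in fibroblast-like nuclei and below it in lymphatic-like and T or NK cell-like nuclei by more than counting error. Since a few nuclei give many of these UMIs, counting error understates the spread. In BMD, 1 macrophage-like nucleus held 74 mitosis UMIs, 1 T or NK cell-like nucleus 66, 1 endothelial-like nucleus 62 and 1 fibroblast-like nucleus 60. In WT, 1 endothelial-like nucleus held 55. The part of such single nuclei in the class differences was not tested. The 2 lymphatic-like nuclei with 10 or more list UMIs both came from WT, and 1 was called a doublet. Shares of nuclei with 3 or more mitosis UMIs were also compared. Intervals of BMD minus WT included 0 in macrophage-like (-1.73 to 1.84 points) and lymphatic-like nuclei (-4.92 to 0.38). Those of DMD minus WT included 0 in lymphatic-like (-4.92 to 0.74) and T or NK cell-like nuclei (-4.78 to 1.58). Both intervals lay above 0 in fibroblast-like nuclei, and that of BMD in endothelial-like ones. Both also lay above 0 in the unnamed cluster led by Nrg1 and Vwf (BMD 0.0014 to 8.46 points, DMD 0.42 to 5.18). Scrublet called 85.4% of the nuclei of that cluster doublets. These shares were not made equal in depth. The 54 other mitosis genes did not choose the nuclei but were counted in the same nuclei and libraries. In fibroblast-like nuclei their log2 ratio was 0.37 for BMD (0.26 to 0.48) and 0.22 for DMD (0.11 to 0.33). In endothelial-like nuclei it was 0.36 for BMD (0.18 to 0.54) and 0.11 for DMD (-0.07 to 0.30).

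Gene by gene, 37 members had at least 50 UMIs over the 3 libraries. A member was counted as changed when the ratio of CPM plus 5 over WT reached 1.5-fold in either direction, with no test. In BMD, 2 of 37 were higher, Cenpf and Top2a, and 0 were lower. Of 13359 genes, 2.38% were higher and 3.83% lower. In DMD, 0 were higher and 0 lower, against 3.82% and 2.48% of all genes. The added 5 CPM holds back members of low level. Ccnb1, at 0.641 CPM in WT, could not have counted as lower at any count. The same held for Kif18b, Kif20b, Bub1b, Ccna2, Cdk1, Aurka, Plk1, Ncapg and Melk, the highest of them at 2.16 CPM in WT. The shares of all genes were not matched for level. The median log2 ratio of the members was 0.06 in BMD and -0.01 in DMD, and that of all genes was -0.06 and 0.02. Both comparisons share the WT library. Cenpf was at 3.79 CPM in WT, 9.22 in BMD and 5.08 in DMD, with a log2 ratio of 1.28 in BMD without the added CPM (0.85 to 1.73). Top2a was at 4.14, 8.88 and 5.59 CPM, with a log2 ratio of 1.10 (0.68 to 1.54). Without Scrublet doublets 1 of 35 members tested was higher in BMD, Cenpf, against 2.46% of 13148 genes, and Top2a did not pass. Both calls rest on few nuclei, since 109 of the 138 Cenpf UMIs in BMD came from 27 nuclei with 10 or more list UMIs, and 120 of the 133 Top2a UMIs from 34. With 1 CPM added, 6 members were higher in BMD (Cenpe, Cenpf, Diaph3, Kif11, Prc1 and Top2a) and 2 lower (Kif15 and Mcm2), against 4.42% and 7.84% of all genes. In DMD, Ccna2 and Kif11 were then higher, against 7.58% of all genes.

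**Figure D5:**
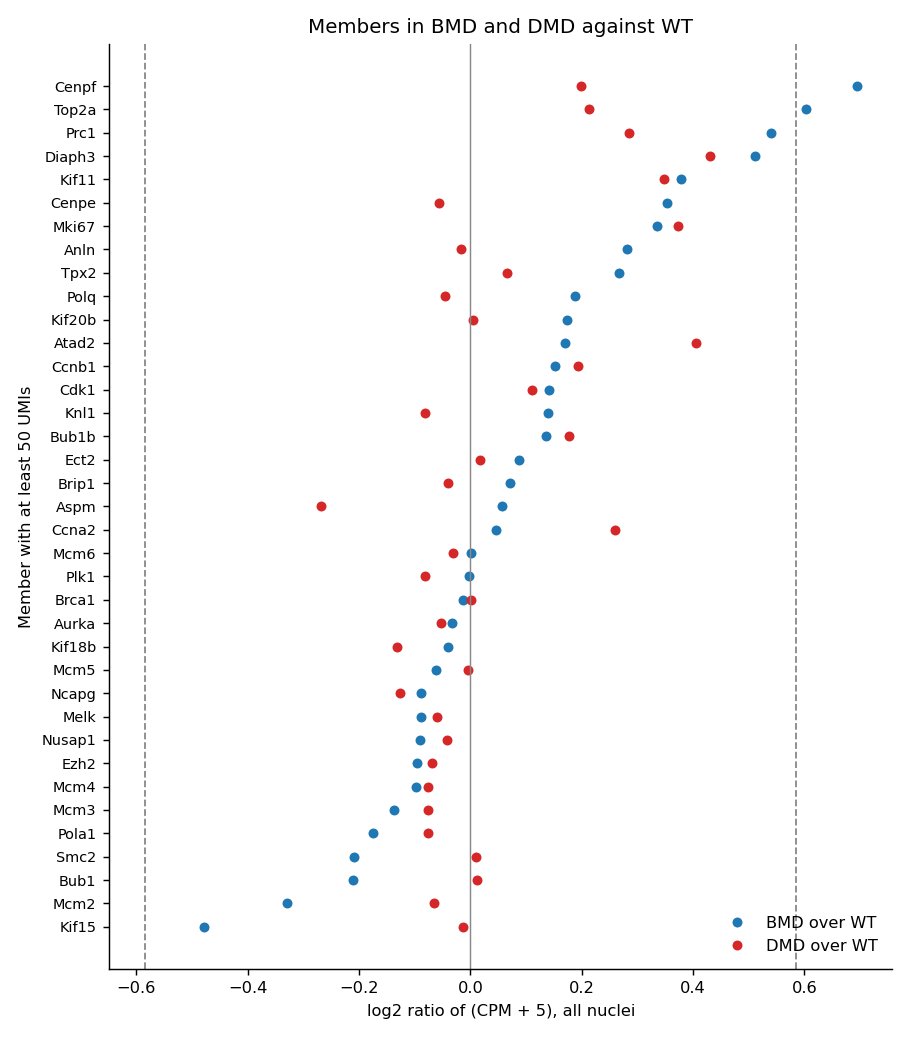
Log2 ratio of CPM plus 5 over WT for the 37 members with at least 50 UMIs, in BMD and DMD over all nuclei, with dashed lines at 1.5-fold in either direction. Cenpf and Top2a lie beyond the upper line in BMD, and no member does in DMD.

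Further genes of the pathway, listed by their known roles and with earlier results of these data known, were compared between dividing and other nuclei. Over the 3 libraries, 52 of 54 other mitosis genes had CPM plus 5 at least 1.5 times higher in dividing nuclei and 0 lower, with a median log2 ratio of 1.22, against 2.03% higher and 1.27% lower among 14381 genes that are no members. For replication, 50 of 52 listed genes were found, 49 had at least 20 UMIs, and 37 were higher and 0 lower, with a median of 0.83. Of the 20 entry and brake genes, 1 was higher, with a median of 0.15. The condensin gene Smc4 was at 119 CPM in dividing and 65.6 CPM in other nuclei, and Ncapg2, another condensin gene, at 58.7 and 25.2 CPM. The primase genes Prim2 and Prim1 stood at 113 against 66.0 and at 83.8 against 42.8 CPM. Dut, which keeps uracil out of DNA, stood at 85.6 against 53.8 CPM. Each of these 5 genes was higher in dividing nuclei in all 3 libraries. The entry and brake genes Rb1, Meis1, Rbl2 and Cdk6 had log2 ratios between -0.12 and 0.14. The 1 that passed the fold was Rbl1, a relative of Rb1, at 1.10. These counts depended on the 146 nuclei with 10 or more list UMIs. When these were left out, an alternative added after seeing the data, 5 of 46 other mitosis genes and 14 of 48 replication genes were higher and 0 lower, against 0.593% higher and 1.48% lower of 14337 genes. The nuclei with 10 or more held 205 of the 532 Smc4 UMIs, 123 of the 262 Ncapg2 UMIs and 53 of the 164 Rbl1 UMIs of dividing nuclei.

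Genes of neither list were ranked by their level in dividing nuclei against other nuclei of the same class makeup, among 11279 genes with at least 20 UMIs in dividing nuclei. Kntc1 of the kinetochore was at 28.5 CPM against 3.05 CPM for the same classes, and Cep55 of the final cut between daughter cells at 13.2 against 0.444 CPM. Plk4, which starts centriole duplication, was at 14.6 against 2.24 CPM. Gen1, a DNA junction nuclease, was at 23.3 against 5.28 CPM, and Pclaf, which binds the sliding clamp of DNA polymerases, at 13.2 against 1.78 CPM. Depdc1b, Necab3, Zfp367 and Stmn1 were the others, with log2 ratios of CPM plus 5 between 1.44 and 1.73. Many of these UMIs came from the 146 nuclei with 10 or more list UMIs, which held 54 of the 59 Pclaf, 49 of the 59 Cep55, 52 of the 65 Plk4 and 53 of the 65 Depdc1b UMIs of dividing nuclei. They held 66 of 127 for Kntc1, 60 of 104 for Gen1 and 53 of 88 for Stmn1. Pclaf was at 1.24 CPM in nuclei with 3 to 9 list UMIs (0.40 to 2.89) and at 1.71 CPM in those under 3.

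The top gene of this ranking was Tnc, which encodes the matrix protein tenascin C. It was at 143 CPM in dividing nuclei against 26.3 CPM for the same classes, and 263 of its 640 UMIs in dividing nuclei came from 21 nuclei with 10 or more list UMIs. In dividing fibroblast-like nuclei, Tnc was at 151, 663 and 425 CPM. In other fibroblast-like nuclei it was at 70.3, 115 and 73.6 CPM. Few nuclei carried it, since the 269 UMIs of BMD came from 17 of 145 dividing fibroblast-like nuclei, the 136 of DMD from 13 of 141 and the 62 of WT from 7 of 184. In dividing endothelial-like nuclei Tnc had 0, 1 and 0 UMIs. In BMD, 77 UMIs came from 2 dividing nuclei of the unnamed cluster led by Adarb2 and Kcnj5. In DMD, 63 came from 3 dividing nuclei of the unnamed cluster led by Nrg1 and Vwf. Scrublet called 86.8% and 85.4% of the nuclei of these clusters doublets.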

How the data were processed

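Nuclei of 3 rat heart apex libraries (1 each of WT, BMD and DMD) were captured with a 10x 3′ kit, and the authors made UMI counts per gene and barcode with Cell Ranger on rn6, per the submitters' processing notes. The deposited counts were used as they stand. File headers name version 6.0.1 for the WT file, an aggregate in which barcode suffix 3 is WT, and version 4 for BMD and DMD. Whether introns were counted is not given in the sources used here. No column belonged to a sample other than these 3 libraries.

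The top 9964, 6810 and 7890 barcodes by UMI total were taken as nuclei. Counts were scaled to 10000 per nucleus and clustered in scanpy 1.11.5 (2000 variable genes, 30 components, 15 neighbours, Leiden resolution 0.5) without cell cycle genes. A cluster was named from at least 3 raised markers, unless markers of another class or mitochondrial genes led its 10 top genes. Scrublet doublets were kept. CPM used the UMI total of the nuclei. Intervals are exact Clopper-Pearson, exact Poisson or Newcombe (scipy 1.17.1, numpy 2.4.6), and a count of 0 was set against a floor of 3 counts. They cover counting error only, and no p-value was computed, as each genotype had 1 library. Depth was 13766688 to 17160871 UMIs in nuclei.

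The members and lists were chosen with earlier results of these data known. Genes were named by a rule: the 12 members with most UMIs in dividing nuclei, the 8 with most in other nuclei, members past 1.5-fold in the same direction in BMD and DMD (0 were), the 10 other cell cycle genes with most UMIs in dividing nuclei (1 is not reported here), and the 10 genes of neither list ranked first. Alternatives changed the UMI threshold, members counted, depth, barcodes, doublets, mitochondrial filter, source file, clustering, scaling (edgeR 4.0.16 TMM), filter and added CPM.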

Additional observations from a re-analysis of the deposited data

How the results depend on the processing

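No paired analysis was possible because each genotype had 1 library and no test was run. Shares of dividing nuclei are given in the order WT, BMD, DMD. They were 12.6%, 15.1% and 12.7% with at least 2 list UMIs, 1.22%, 2.04% and 1.24% with at least 5, and 2.66%, 3.58% and 2.88% with 3 different genes. They were 0.783%, 1.31% and 1.09% from mitosis members and 2.89%, 4.16% and 2.74% from replication members. Thinning gave 0.713%, 0.910% and 0.659% at 500 UMIs, and 2.06%, 2.29% and 2.03% at 1000. Barcodes with at least 1000 UMIs gave 6.87%, 8.13% and 7.18%. Without doublets WT had 4.07% and DMD 4.11%. In the aggregate, which holds 76.1% of BMD and 92.9% of DMD UMIs, BMD had 4.02% and DMD 4.20%. Chosen after seeing the data, at least 10 list UMIs gave 0.502%, 0.778% and 0.545%, and leaving out the 4 members with most UMIs gave 1.18%, 1.88% and 1.44%. The BMD minus WT difference was 2.46 points when 2 list UMIs sufficed, 0.817 when 5 were needed, 0.923 with 3 genes, 0.524 from mitosis members, 0.198 and 0.235 after thinning to 500 and 1000, 0.276 with at least 10 and 0.695 without the 4 members. It turned to -0.643 in the aggregate, where BMD keeps fewer UMIs per nucleus, and DMD minus WT was -0.472 there. The list level was 251, 214 and 254 CPM without dividing nuclei, which were left out by the same UMIs. With TMM scaling the list level of BMD was 404 CPM and that of DMD 382 CPM. With 1 CPM added, 6 members were higher and 2 lower in BMD, against 4.42% and 7.84% of all genes. In DMD 2 were higher, against 7.58%. Without doublets 1 was higher in BMD, Cenpf, against 2.46% of all genes, and Top2a no longer passed. Without the nuclei with 10 or more list UMIs, chosen after seeing the data, the other cell cycle genes higher in dividing nuclei fell from 52 to 5 for mitosis and from 37 to 14 for replication.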
